A study of Arabidopsis thaliana with 18 samples.

Results

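The RNA carried by polysomes was compared with the steady-state RNA of Arabidopsis thaliana seedlings after 4 h of greening. The comparison takes 6 of the 18 arrays of the study, all 3 that hold polysome RNA and all 3 that hold steady-state RNA at that time, and the replicate number joins them into 3 pairs. Seedlings of the Col-0 wild type were etiolated, 4 days old, and had been moved into white light of 70 to 80 µmol per square metre per second for 4 h. Polysome RNA was collected through a sucrose gradient, whereas steady-state RNA was the total RNA of the tissue. The same 2 RNA kinds were taken, 3 arrays each, from seedlings given 0.5 h of that light and from seedlings kept dark. Those 12 arrays show where the 4 h ratios differ. They also share 1 fit with the 4 h arrays, so standard errors and calls at 4 h draw on the spread of all 18 arrays. All groups are wild-type aerial parts on half-strength agar medium, and the labels call the replicates biological without saying how many seedlings each pooled.

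A polysome is an mRNA with several ribosomes on it, so the ratio of a transcript's signal in polysome RNA to its signal in steady-state RNA describes how much of the transcript was loaded relative to the other transcripts. Etiolated seedlings live on seed reserves and hold etioplasts in place of chloroplasts. On illumination they make chlorophyll, assemble thylakoid membranes and build ribosomes in cytosol and plastid. Chloroplast genes are read as long transcripts of several genes that are cut, spliced and trimmed, and they are translated by the plastid's own ribosomes. Ratios below are log2 values, polysome over steady-state, fitted with limma on 15922 probe sets, and a probe set is called where its Benjamini-Hochberg adjusted p was under 0.05.

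Control transcripts on the arrays differed between the RNA kinds before any gene was tested. The ratio of 3′ to 5′ signal of actin (the control pair marked r2) was 10.8, 15.7 and 6.43 in polysome RNA at 4 h, against 2.35, 1.95 and 1.94 in steady-state RNA. GAPDH (the control pair made for Arabidopsis) gave 5.16, 9.6 and 5.67 in polysome RNA and 1.6, 1.67 and 1.65 in steady-state RNA. The polysome arrays were thus richer in 3′ signal for these transcripts, without overlap, and the ubiquitin pair marked r2 lay closer together at 1.28 to 1.69 in polysome RNA and 0.936 to 1.2 in steady-state RNA. The same held in dark and 0.5 h samples for actin and GAPDH. Where in its transcript each probe set lies was not used here, and the part of this difference in the ratios below was not tested. The rRNA probe sets went opposite ways. That of 25S rRNA gave 63.9, 44.8 and 79.5 in polysome RNA, against 128, 119 and 236 in steady-state RNA, and that of 5S rRNA gave 85.4, 103.5 and 137.6 in polysome RNA, against 27.8, 65.0 and 69.7 in steady-state RNA, both without overlap. The authors scaled all arrays to a common trimmed mean, so a change of total polysome content cannot be seen.

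**Figure D1:**
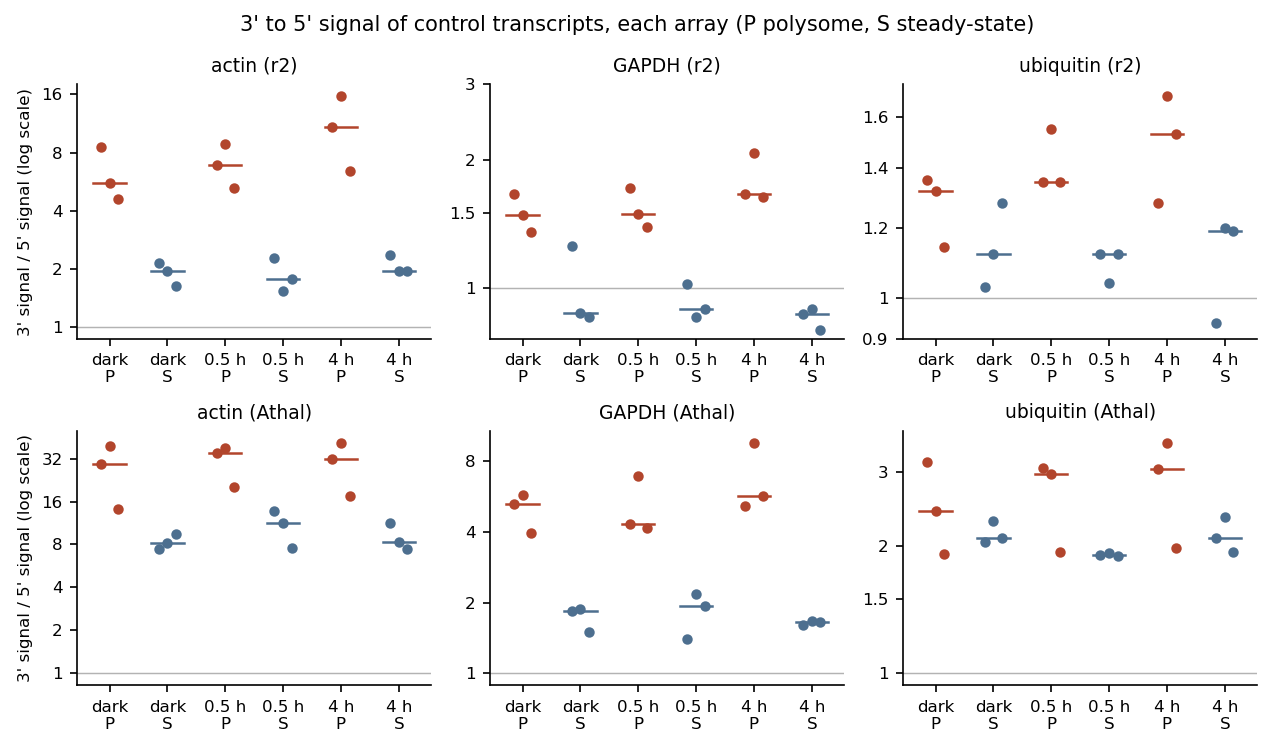
The ratio of 3′ to 5′ signal of 6 control probe set pairs is drawn for each array on a log axis, with polysome (P) left of steady-state (S) RNA in dark, 0.5 h and 4 h samples and a bar at each median. For actin and GAPDH every polysome array at 4 h lies above every steady-state array, with actin (r2) at 6.43 to 15.7 against 1.94 to 2.35.

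Polysome and steady-state RNA differed at 4 h for 3677 of 15922 probe sets, which is 23.1%. Of these, 1535 (9.64%) were higher and 2142 (13.5%) lower in polysome RNA. A change of at least 2-fold was reached by 224 of the higher calls (1.41%) and by 565 of the lower calls (3.55%). The split into higher and lower depended on the scaling: with arrays set to a common median, 2222 were higher and 1368 lower, and that scaling moved the median ratio to 0.076 from −0.060 as deposited. Without the replicate number as a block, 884 were higher and 1249 lower. Fitted on the 6 arrays of 4 h alone, 1925 were higher and 2541 lower. That fit leaves 2 residual degrees of freedom, so its calls lean on the spread shared across probe sets. The spread of the ratio over all probe sets was moderate, with the middle 50% between −0.39 and 0.26, and the median standard error was 0.201.

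Calls were fewer among weak signals. In the weakest of 4 equal bins, with geometric mean signals of 42.1 to 148, 1.28% were higher and 5.33% lower. In the strongest bin, above 851, the shares were 20.1% and 19.1%. The list counts below stand beside the shares over all probe sets and were not matched for signal. A list of strong signals can thus exceed those shares, and a list of weak signals fall short of them, through signal alone. In the dark 17.2% of probe sets differed and at 0.5 h 18.5%. In the dark, 1323 were higher and 1415 lower (8.31% and 8.89%), and at 0.5 h 1491 were higher and 1453 lower (9.36% and 9.13%). Of the 1535 calls higher at 4 h, 739 were also higher in the dark, which is 48.1% of the 4 h calls and 55.9% of the dark calls. Of the 2142 calls lower at 4 h, 781 were also lower in the dark, 36.5% of the 4 h calls and 55.2% of the dark calls. Calls of opposite direction between 4 h and dark numbered 34 and 4. Across all probe sets the 4 h ratio correlated with the dark ratio at r = 0.542 and with the 0.5 h ratio at r = 0.536, over probe sets that share the array design and the fitted replicate block.

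AT5G10770 was among the genes of largest ratio. AT5G10770 gave 1485, 1474 and 1315 in polysome RNA, against 294, 373 and 174 in steady-state RNA. The 2 RNA kinds were far apart on every array, with a log2 ratio of 2.41 (SE 0.253, limma adjusted p = 1.23e-06), and the ratio was 2.04 in the dark and 2.04 at 0.5 h. AT3G22240 gave 2341, 2585 and 2143 in polysome RNA and 734, 880 and 788 in steady-state RNA, a log2 ratio of 1.56 (SE 0.211, limma adjusted p = 2.53e-05). AT5G16450 gave 604, 1011 and 856 in polysome RNA and 247, 257 and 263 in steady-state RNA, a log2 ratio of 1.66 (SE 0.22). The steady-state arrays of AT5G16450 lay within a narrow band and the polysome arrays all above 600. AT2G30540 gave 432, 649 and 521 in polysome RNA and 85.1, 161 and 147 in steady-state RNA, a log2 ratio of 2.06 that was 2.70 in the dark and 0.24 at 0.5 h. The reference table gives these 4 genes a locus name only, so no role is stated.

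Other large ratios came from weak signals, and several of them held a very low value on a single array. AT1G36240, which is on the list of 60S ribosomal proteins, had the largest ratio of all named genes at 2.60 (SE 0.783, limma adjusted p = 0.0194). Its signals were 77.0, 58.4 and 129 in polysome RNA, against 1.8, 27.6 and 52.1 in steady-state RNA, with the first steady-state array far below the other two. AT5G21020 likewise had a steady-state value of 2.4 beside 67.5 and 65.5, with 94.0, 145 and 87.5 in polysome RNA. The groups of both genes did not overlap. Without the first steady-state array the ratios were 1.30 (limma adjusted p = 0.151) for AT1G36240 and 0.92 (limma adjusted p = 0.0825) for AT5G21020. Both calls were also lost without the first polysome array (limma adjusted p = 0.0951 and 0.0783) and without the block (limma adjusted p = 0.0932 and 0.0933). AT5G04310, AT4G14840, AT2G43250, AT5G58520, AT5G18540 and AT3G03590 complete the 12 genes of largest ratio, with log2 ratios of 2.15, 2.14, 1.92, 1.90, 1.75 and 1.52. Without the third steady-state array, AT2G43250 stood at 0.96 and was not called (limma adjusted p = 0.0563), and AT5G58520 was at 1.04. Without the second, AT4G14840 was at 1.36, and without the block AT5G58520 was not called (limma adjusted p = 0.0526).

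Among lower genes, psaA, the chloroplast gene for a core subunit of photosystem I, gave 421, 552 and 675 in polysome RNA, against 5643, 7011 and 3978 in steady-state RNA. Every polysome array was several-fold below every steady-state array, and the log2 ratio was −3.32 (SE 0.231, limma adjusted p = 1.07e-08). AT1G01320 gave 107, 110 and 189 in polysome RNA and 957, 1661 and 1352 in steady-state RNA, a log2 ratio of −3.30 (SE 0.255, limma adjusted p = 3.99e-08). AT5G24690 gave 106, 116 and 226 in polysome RNA and 1036, 1157 and 1131 in steady-state RNA, with the smallest adjusted p of the named genes (1.19e-09, limma) at a log2 ratio of −2.98. AT5G13030 and AT5G15780 had log2 ratios of −2.92 and −2.90. The arrays of the 2 RNA kinds stayed apart for each of these genes.

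Among weaker signals, SIZ1, a SUMO E3 ligase, gave 28.7, 3.8 and 104 in polysome RNA and 416, 472 and 293 in steady-state RNA. Its log2 ratio was −4.10 (SE 0.775, limma adjusted p = 0.000675), with polysome arrays that varied widely among themselves, and it was −2.67 without the second polysome array. The gene hemf2, named for coproporphyrinogen oxidase, an enzyme of tetrapyrrole synthesis, gave 5.4, 17 and 24.7 in polysome RNA and 117, 130 and 115 in steady-state RNA, a log2 ratio of −3.19 (SE 0.393). AT2G14255, AT1G32810, AT3G50590, AT1G33470 and AT2G39580 had log2 ratios of −4.27, −4.24, −3.27, −3.26 and −3.10, with polysome signals under 100 on every array.

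**Figure D2:**
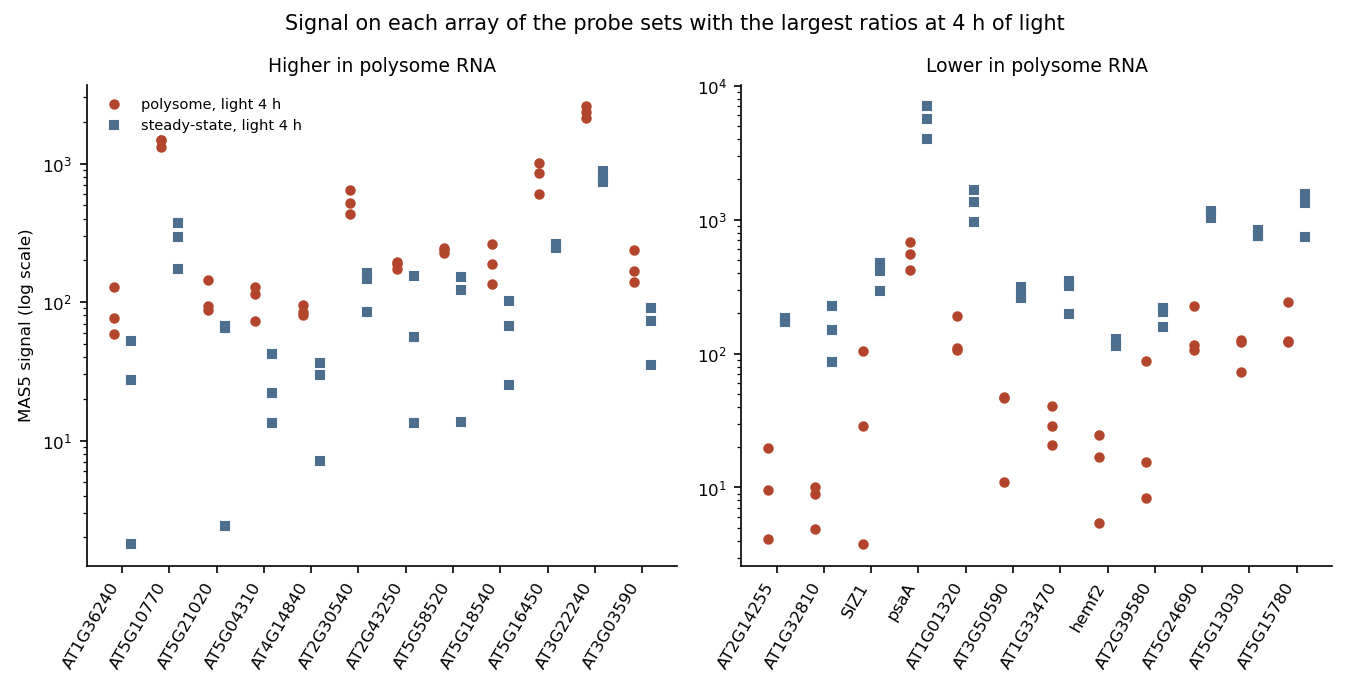
The MAS5 signal of the 12 genes of largest ratio in each direction is drawn on a log axis for each of the 3 polysome and 3 steady-state arrays at 4 h of light. The 2 groups of points do not overlap for any gene, by the rule that chose them, and several higher genes hold a steady-state value under 15 beside 2 larger ones.

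Probe sets of the same gene often gave different ratios. Among the genes read by 2 or more tested probe sets, 88 in number, the median distance between the highest and lowest ratio was 1.15, and it reached 1 or more in 57. The lowest probe set was called lower in 53 of the 88 genes, and the highest was called higher in 11. Among all probe sets 13.5% were lower and 9.64% higher, but taking the extremes of each gene by itself favours calls in those directions. In 5 genes a probe set was called higher and another lower. AT1G32810 had ratios of 0.54 (limma adjusted p = 0.0122) and −4.24, and AT1G01320 had 0.15 and −3.30. SIZ1 was lower by both of its probe sets, at −0.57 and −4.10. AT3G50590 had 0.05 and −3.27, and AT4G02480 had 0.37 and −2.89. The distance had the same sign in the dark in 83 of the 88 genes, with a median of 1.04 for the same probe sets. In 23 of the 57 genes the reference entry carries a further locus name. A low ratio of a gene read by 1 probe set is therefore a value of that probe set, beside the 3′ excess of the control transcripts in polysome RNA, whose part was not tested.

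Many genes of the cytosolic ribosome were higher in polysome RNA. Of 42 measured probe sets for 40S subunit proteins, 20 were higher and none lower, with a median ratio of 0.54, against 9.64% higher among all probe sets and an overall median of −0.06. Of 77 for 60S subunit proteins, 43 were higher and 5 lower, with a median of 0.53. Among the 40S members, AT4G34670 gave 6362, 8492 and 6182 in polysome RNA, against 2780, 3038 and 2701 in steady-state RNA. Polysome signals were more than 2-fold above steady-state signals on all 3 pairs, at a log2 ratio of 1.29 (SE 0.152, limma adjusted p = 5.71e-06). AT3G47370 gave 2293, 3070 and 2520 in polysome RNA and 946, 1072 and 1218 in steady-state RNA, a log2 ratio of 1.28 (SE 0.15).

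Among the 60S members, AT4G25890 gave 1523, 1436 and 1318 in polysome RNA and 640, 624 and 573 in steady-state RNA. The groups were narrow and apart, with a log2 ratio of 1.22 (SE 0.168, limma adjusted p = 3.11e-05). AT2G27720 gave 5234, 5919 and 5183 in polysome RNA and 2479, 2763 and 2894 in steady-state RNA, a log2 ratio of 1.01 (SE 0.141). The list did not move as a block. AT3G09630, AT5G02870, AT3G11250, AT4G10450 and AT2G40010 were lower, at −0.53, −0.50, −0.65, −0.64 and −0.88, and 29 of the 77 probe sets were not called. PGY1, which encodes a 60S subunit protein known from leaf polarity mutants, was higher at 0.40 (limma adjusted p = 0.015). Paralogous ribosomal protein genes are close in sequence, so signals of gene pairs may be shared. Without the first steady-state array at 4 h, the higher calls were 13 of the 40S and 28 of the 60S probe sets.

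Translation factors, with 12 measured probe sets for 50 listed genes, showed no common direction, with 2 higher, 2 lower and a median of 0.12. The shares over all probe sets were 9.64% higher and 13.5% lower. AT4G20980, listed as an initiation factor 3 subunit, was lower at −0.90 (SE 0.193, limma adjusted p = 0.00193), with 754, 803 and 884 in polysome RNA and 1455, 1604 and 1492 in steady-state RNA. AT2G40290, listed as an initiation factor 2 subunit, was lower at −0.56. AT1G77840 and AT2G04520 were higher, each at 0.46. The call of AT2G40290 was lost in 3 of 6 fits that left out an array (limma adjusted p up to 0.118). For 36 listed nuclear genes of plastid ribosomal proteins, 8 probe sets were measured. Of these, 3 were higher and none lower, with a median of 0.14, against the same 9.64% higher. AT1G29070 gave 11348, 10636 and 10133 in polysome RNA and 7274, 6681 and 7491 in steady-state RNA, a log2 ratio of 0.58 (SE 0.122). AT5G47190 had 0.60, with its call lost in 2 of 6 such fits (limma adjusted p up to 0.074), and AT3G54210 had 0.36.

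**Figure D3:**
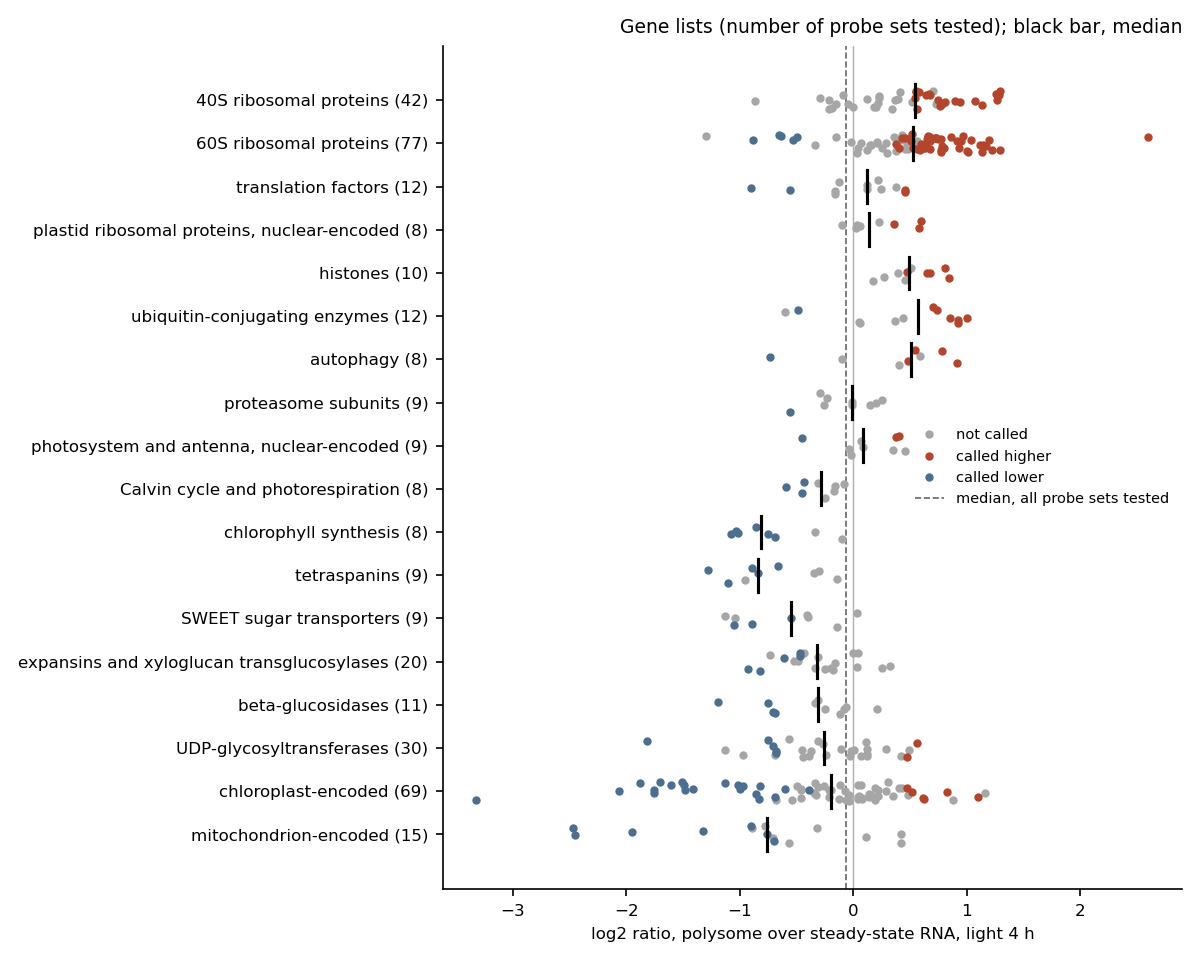
Each point is the log2 ratio of polysome over steady-state RNA at 4 h of light for 1 probe set of a gene list, coloured by its call, with the list median as a black bar and the median of all probe sets (−0.06) as a dashed line. The 2 cytosolic ribosomal lists have medians of 0.54 and 0.53, whereas chlorophyll synthesis and tetraspanins have medians of −0.81 and −0.84.

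Chloroplast-encoded genes ranged in ratio between −3.32 and 1.16. Of 69 probe sets, 21 were lower and 6 higher, with a median of −0.20 that was −0.07 with arrays set to a common median, against 13.5% lower and 9.64% higher among all probe sets. Photosystem II genes gave 8 lower and none higher of 15. Photosystem I genes gave 3 lower and 2 higher of 5, and genes of the plastid ribosome gave 4 lower and 1 higher of 15. The NDH complex, which passes electrons around photosystem I, gave 2 lower of 10. Several well-known genes were not called. rbcL, the large subunit of Rubisco, had a ratio of −0.12 (limma adjusted p = 0.68), and psbA, the D1 protein of photosystem II, had −0.21 (limma adjusted p = 0.641). The list was much alike before 4 h. In the dark 23 of the 69 were lower and 1 higher, beside 8.89% and 8.31% of all probe sets. At 0.5 h 24 were lower and 6 higher, beside 9.13% and 9.36%. The medians were −0.14 in the dark and −0.21 at 0.5 h.

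Genes that lie next to each other and are known to be read together differed in ratio. These units were picked after the values had been seen. They are grouped in the gene order of the reference table. The first gene had the lowest ratio in the units that begin with psaA, psbD, psbE and ndhH. In the unit that begins with psbB it shared the lowest, and in those of atpI and psaI it did not have it. The part of the 3′ excess in polysome RNA in these differences was not tested. In the unit of psaA, psaB and rps14, psaA was lower at −3.32, whereas psaB, the other core subunit of photosystem I, was higher at 0.47 (SE 0.125, limma adjusted p = 0.00859) and rps14 stood at 0.88 (limma adjusted p = 0.107). psaB gave 18480, 23108 and 20296 in polysome RNA, against 14383, 17314 and 12981 in steady-state RNA, so every polysome array was above every steady-state array. The distance between lowest and highest ratio within this unit was 4.20. In the unit of psbD, psbC and psbZ, psbD, the D2 protein, gave 1082, 1502 and 2216 in polysome RNA and 4248, 6127 and 4751 in steady-state RNA. Its log2 ratio was −1.70 (SE 0.189, limma adjusted p = 2.77e-06), and psbC and psbZ stood at −0.04 and 0.14.

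In the ATP synthase unit, atpH, the membrane ring subunit, was higher at 0.83 (limma adjusted p = 0.00548) and atpF, whose transcript holds an intron, was lower at −2.06 (SE 0.229, limma adjusted p = 2.77e-06). atpF gave 1837, 1885 and 3372 in polysome RNA, against 8092, 11015 and 9553 in steady-state RNA, and the neighbours atpI and atpA stood at −0.34 and −0.07. In the unit of psaI, ycf4, cemA and petA, psaI was higher at 0.61, ycf4, a photosystem I assembly factor, was lower at −1.61, cemA was lower at −1.02, and petA stood at 0.14. In the unit that begins with psbB, the first 3 genes psbB, psbT and psbH were lower at −1.76, −1.48 and −1.76, and petB and petD stood at −0.20 and 0.31. In the ndhH unit, ndhH, ndhA and psaC were lower at −1.88, −0.82 and −1.41, and the genes between and after them were not called.

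The unit of psbE, psbF, psbL and psbJ had the smallest distance among the 7 examined, with all 4 genes lower, at −1.51, −0.83, −0.69 and −0.60, and a distance of 0.91. psbE, a subunit of cytochrome b559, gave 2646, 2903 and 3728 in polysome RNA, against 7958, 9101 and 9138 in steady-state RNA. Its ratio was −1.95 in the dark and −2.07 at 0.5 h. petN, a small subunit of the cytochrome b6f complex, and rps4, a plastid ribosomal protein, were higher at 1.10 and 0.62. Polysome arrays of petN lay at 284, 554 and 483, against 151, 362 and 140 for steady-state arrays, and the 2 ranges overlapped.

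**Figure D4:**
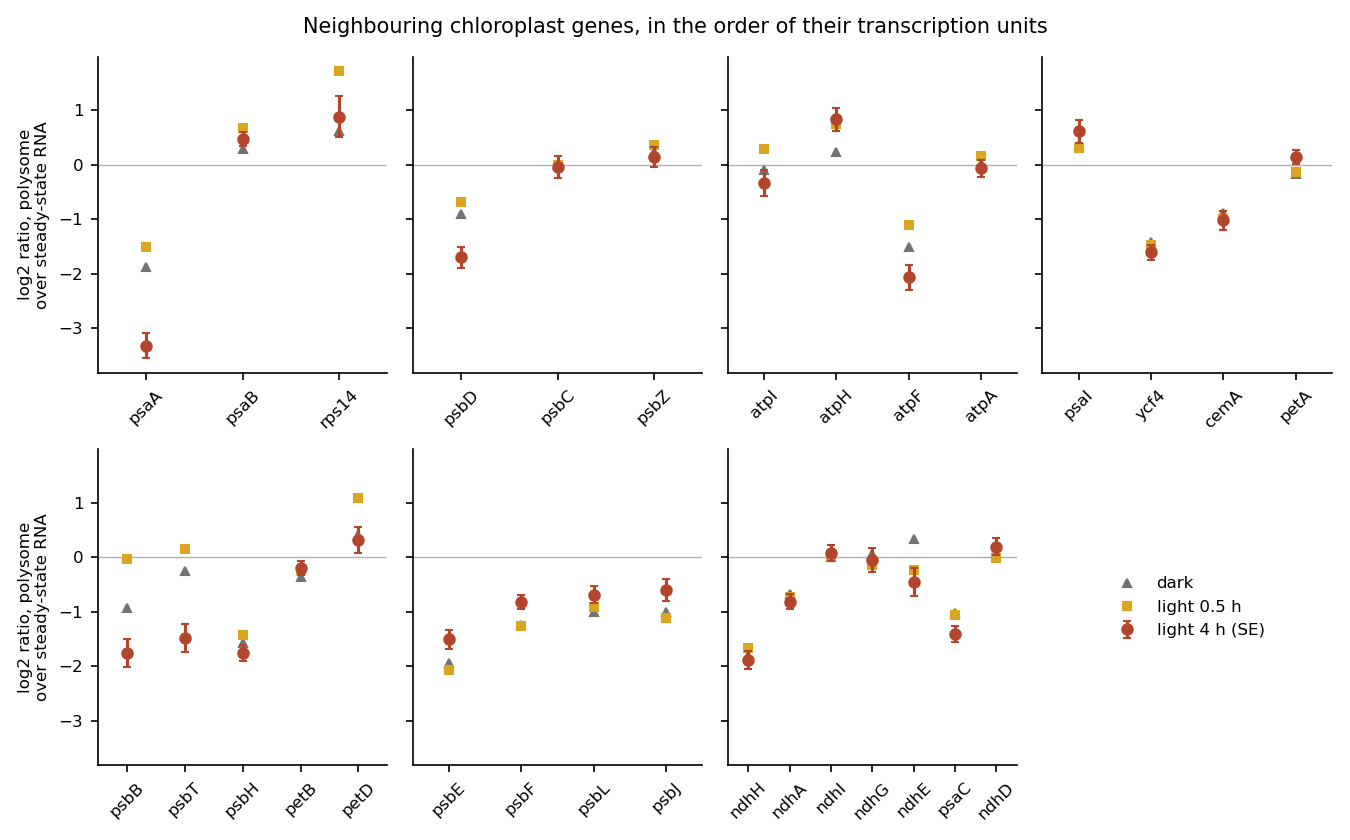
The log2 ratio of polysome over steady-state RNA is drawn for 30 chloroplast genes in 7 transcription units, in gene order, with dark as triangles, 0.5 h as squares and 4 h as circles with standard errors. Neighbours lie far apart within 6 of the units, by 4.20 in the psaA unit, and closer, by 0.91, in the psbE unit.

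Mitochondrion-encoded genes were named from the array annotation and had 15 tested probe sets, of which 7 were lower and none higher, with a median of −0.76, against 13.5% lower among all probe sets. With quantile normalization or a common median, 3 were lower. cox1, a subunit of cytochrome oxidase, gave 119, 209 and 182 in polysome RNA and 221, 371 and 363 in steady-state RNA, a log2 ratio of −0.90 (SE 0.232, limma adjusted p = 0.00722). The 4 probe sets of nad1, a complex I subunit, had ratios of −2.47, −0.89, −0.32 and 0.42, and the first of these was called. Most of these signals were weak, with nad9 at 4.2, 46.1 and 33.9 in polysome RNA and 44.7, 114 and 212 in steady-state RNA. The median of the list was also low in the dark, at −0.78, and at 0.5 h, at −0.82. In the dark 3 of the 15 were lower and at 0.5 h 5, beside 8.89% and 9.13% of all probe sets.

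Most measured enzymes of chlorophyll synthesis were lower in polysome RNA. Of 8 probe sets measured for 25 listed genes, 6 were lower and none higher, with a median of −0.81. Among all probe sets 13.5% were lower. CHLI2, a magnesium chelatase subunit, gave 1007, 647 and 597 in polysome RNA, against 1686, 1537 and 1415 in steady-state RNA, a log2 ratio of −1.08 (SE 0.163, limma adjusted p = 7.68e-05). GSA1, which makes 5-aminolevulinate, gave 633, 465 and 663 in polysome RNA and 1424, 979 and 1171 in steady-state RNA, a log2 ratio of −1.02 (SE 0.155, limma adjusted p = 8.15e-05). No polysome array of either gene reached a steady-state array. HEME1 and HEME2, which encode uroporphyrinogen decarboxylase, were lower at −1.03 and −0.69, HEMA2, a glutamyl-tRNA reductase, at −0.86, and HEMB1, which makes porphobilinogen, at −0.75. PORB, the light-driven protochlorophyllide reductase, stood at −0.34 (limma adjusted p = 0.11), with 3625, 2142 and 2326 in polysome RNA and 4595, 2753 and 2900 in steady-state RNA. CHLM, the magnesium protoporphyrin methyltransferase, stood at −0.10. The count of 6 lower was the same with quantile normalization or a common median.

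The nuclear genes measured for photosystem and antenna proteins did not share a direction, with 2 higher and 1 lower of 9 and a median of 0.09. Among all probe sets 9.64% were higher and 13.5% lower. The list holds 52 genes, so most of it was not measured. AT2G26500, listed with the cytochrome b6f complex, gave 25773, 24582 and 22296 in polysome RNA, against 19930, 17220 and 18569 in steady-state RNA, a log2 ratio of 0.38 (SE 0.117, limma adjusted p = 0.021). PSBW, a small subunit of photosystem II, was higher at 0.40, and ATPC1, the gamma subunit of the chloroplast ATP synthase, was lower at −0.45. The calls of AT2G26500 and ATPC1 were lost in 4 and 3 of 6 fits that left out an array (limma adjusted p up to 0.0977 and 0.178) and without the block (limma adjusted p = 0.0537 and 0.115). LHCB4.1 and LHCB4.2, minor antenna proteins of photosystem II, stood at 0.09 and −0.02. Under quantile normalization none of the 9 was called higher, and with a common median 4 were higher and none lower.

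For 32 listed Calvin cycle and photorespiration genes, 8 probe sets were measured, all with ratios below 0. Of these, 3 were lower and none higher, with a median of −0.28, against 13.5% lower among all probe sets. RCA, the activase of Rubisco, gave 21365, 17438 and 16473 in polysome RNA, against 26173, 24863 and 24087 in steady-state RNA, a log2 ratio of −0.45 (SE 0.113, limma adjusted p = 0.00617). SBPASE, sedoheptulose bisphosphatase, was lower at −0.43 and PRK, phosphoribulokinase, at −0.59. The polysome arrays of all 3 genes lay below the steady-state arrays. With arrays set to a common median none of the 8 was called. Without the block RCA and SBPASE were not called (limma adjusted p = 0.0634 and 0.0666), and SBPASE lost its call in 2 of 6 fits that left out an array (limma adjusted p up to 0.091).

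Several genes of the ubiquitin and autophagy systems were higher. Of 12 ubiquitin-conjugating enzymes, 6 were higher and 1 lower, with a median of 0.57, against 9.64% higher and 13.5% lower among all probe sets. UBC29 gave 1669, 1949 and 1819 in polysome RNA, against 875, 974 and 876 in steady-state RNA, a log2 ratio of 1.00 (SE 0.127, limma adjusted p = 1.36e-05), and UBC30 was higher at 0.92. UBC28 went the other way at −0.49 (limma adjusted p = 0.01), with 6800, 6858 and 6810 in polysome RNA and 9363, 9688 and 9635 in steady-state RNA. Of 12 ubiquitin-specific proteases, 3 were higher and none lower, among them UBP25 at 0.88 and UBP15 at 0.76. These shares also stand beside the next counts. Of 8 autophagy genes, 4 were higher and 1 lower, and all of the higher ones belong to ATG8, the protein that is joined to autophagosome membranes. ATG8H gave 1586, 1453 and 1153 in polysome RNA and 767, 758 and 692 in steady-state RNA, a log2 ratio of 0.91 (SE 0.173), and ATG8D was higher at 0.78. ATG3, the enzyme that attaches ATG8 to lipid, was lower at −0.73 (limma adjusted p = 0.00127).

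Of 10 histone probe sets 5 were higher and none lower, with a median of 0.49, against 9.64% higher among all probe sets. HTB1, a histone H2B, gave 1388, 1773 and 1343 in polysome RNA, against 893, 1058 and 898 in steady-state RNA, a log2 ratio of 0.65 (SE 0.15, limma adjusted p = 0.00329), and AT2G37470 was higher at 0.81. HTB1 was not called without the block (limma adjusted p = 0.0715). The histone median was 0.48 in the dark and 0.16 at 0.5 h. In the dark 4 of the 10 were higher and at 0.5 h 1, beside 8.31% and 9.36% of all probe sets. Of 15 RNA polymerase and Mediator subunits, 4 were higher and none lower at 4 h, against 9.64% higher among all probe sets. NRPB6A and NRPB12, small subunits of RNA polymerase II, were each higher at 0.91, NRPB9B at 0.97 and NRPB6B at 0.67. The large subunits NRPA1 and NRPA2 of RNA polymerase I stood at −0.31 and −0.41. CYTC-1 and CYTC-2, the mitochondrial cytochromes c, were higher at 0.72 and 1.00, and CYTC-2 gave 2383, 2154 and 2037 in polysome RNA and 899, 1118 and 1288 in steady-state RNA. SDH1-1, the flavoprotein of succinate dehydrogenase, was lower at −0.51.

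Of 9 tetraspanins, small proteins that cross the membrane 4 times, 5 were lower and none higher, with a median of −0.84, against 13.5% lower among all probe sets. TET10 gave 288.4, 226.6 and 280.5 in polysome RNA, against 738, 553 and 647 in steady-state RNA, a log2 ratio of −1.28 (SE 0.178, limma adjusted p = 3.15e-05), and TET2 was lower at −1.10. Of 9 SWEET sugar transporters 3 were lower, SWEET1 at −1.05, SWEET2 at −0.89 and SWEET17 at −0.55. SWEET2 gave 1944, 2911 and 3992 in polysome RNA and 4298, 5430 and 6101 in steady-state RNA, and without the block it was not called (limma adjusted p = 0.0516). Of 20 expansins and xyloglucan transglucosylases, which loosen the growing wall, 5 were lower and none higher, with a median of −0.32, against the same 13.5%. EXPA4 was lower at −0.93 (SE 0.152, limma adjusted p = 0.000163), with 389, 353 and 382 in polysome RNA and 658, 748 and 743 in steady-state RNA, and XTH32 at −0.61. With a common median, 2 of the 20 were lower.

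Of 11 beta-glucosidases 4 were lower, BGLU46 at −1.19 and BGLU16 at −0.75 among them, and 2 were lower with a common median. Of 30 UDP-glycosyltransferases 5 were lower and 2 higher, close to the 13.5% and 9.64% of all probe sets, and with a common median 3 were lower and 3 higher. UGT73B1 gave 212, 269 and 448 in polysome RNA, against 710, 1184 and 1334 in steady-state RNA, a log2 ratio of −1.82 (SE 0.17, limma adjusted p = 3.85e-07). UGT74B1, an enzyme of glucosinolate synthesis, was lower at −0.71, and UGT88A1 was higher at 0.56. Among 8 tubulins and actins, TUA6 and TUA1 were lower at −0.75 and −0.48 and none was higher, whereas with a common median 2 were higher and 1 lower. TUA1 was not called in 2 of 6 fits that left out an array (limma adjusted p up to 0.128), without the block (limma adjusted p = 0.0777) or with a common median. Secreted small peptides went both ways, with 4 higher and 2 lower of 17, against 9.64% and 13.5% among all probe sets. RALFL22, a peptide of the rapid alkalinization factor family, was higher at 0.70 (SE 0.139) and LCR69, a defensin-like protein, at 0.56, whereas PDF2.5 was lower at −1.37. RALFL22 and LCR69 were not called without the block (limma adjusted p = 0.092 and 0.055). Among 18 genes of vacuolar sorting and secretion, VPS2.1, VPS60.1, VPS60.2, VPS22 and VPS46.2, all of the endosomal sorting complexes, were higher at 0.43 to 0.80. The 4 lower genes were SEC5B, SEC6, EXO84B and SEC10, subunits of the exocyst, at −1.61, −0.78, −0.75 and −0.50. The other 9 genes of the list, whose complexes are not given here, were not called. This grouping by complex was made after the values had been seen. The shares over all probe sets were 9.64% higher and 13.5% lower. With a common median 2 of the 18 were lower.

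Among 13 genes with conserved upstream reading frames, short frames that can hold ribosomes before the main one, 3 were higher and 1 lower. The shares over all probe sets were 9.64% higher and 13.5% lower. SAMDC, S-adenosylmethionine decarboxylase of polyamine synthesis, gave 21201, 20023 and 17680 in polysome RNA, against 16393, 13270 and 13557 in steady-state RNA, a log2 ratio of 0.45 (SE 0.128, limma adjusted p = 0.0139). bZIP44, a transcription factor of this class, was higher at 0.69. SAMDC and bZIP44 lost their calls in 2 and 3 of 6 fits that left out an array (limma adjusted p up to 0.0738 and 0.0573) and without the block (limma adjusted p = 0.0921 and 0.0529). Only a single proteasome probe set of 9, AT1G79210, was called, lower at −0.56, and its call was lost in 5 of 6 fits that left out an array (limma adjusted p up to 0.154). No member was called among the 6 reserve mobilisation and starvation genes, the 11 cytochromes P450, the 5 WRKY factors, the 5 Aux/IAA proteins, the 8 chromatin remodelling genes and the 5 glutamate receptors and exchangers. Ratios in these lists ranged from −1.19, among the Aux/IAA proteins, to 0.90, among the glutamate receptors and exchangers. Pseudogenes had 72 tested probe sets, of which 1 was higher and 3 lower, against 9.64% and 13.5% among all probe sets.

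The ratio itself differed between 4 h and the dark for 300 probe sets (1.88%), 221 higher (1.39%) and 79 lower (0.496%) at 4 h, by limma's interaction contrast. AT5G25475 was among the genes with the largest rise. AT5G25475 gave 95.9, 117 and 170 in polysome RNA and 39.1, 44.9 and 58.8 in steady-state RNA at 4 h. In the dark AT5G25475 gave 38.8, 102 and 88.5 in polysome RNA and 121, 243 and 223 in steady-state RNA. Polysome signals were thus above steady-state signals at 4 h and below them in the dark, a change of 2.81 in the log2 ratio (SE 0.429, limma adjusted p = 0.000903). AT3G50790, AT2G29180 and AT1G53120 changed the same way, by 1.93, 1.72 and 1.70. AT2G29180 gave 1667, 1904 and 1966 in polysome RNA and 1201, 1608 and 1512 in steady-state RNA at 4 h, and in the dark 309, 432 and 325 in polysome RNA and 763, 1016 and 927 in steady-state RNA.

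AT2G26500 of the cytochrome b6f list had a ratio of 0.38 at 4 h and −1.30 in the dark, a change of 1.69 (SE 0.165, limma adjusted p = 1.72e-05). In the dark AT2G26500 gave 4346, 3901 and 4079 in polysome RNA and 9785, 9624 and 11035 in steady-state RNA. LPA19, an assembly factor of photosystem II, had 0.66 at 4 h and −0.55 in the dark, a change of 1.21 (SE 0.233, limma adjusted p = 0.00767). LHCB4.2 rose by 0.81 and CHLM by 0.95 relative to the dark, and the plastid ribosomal genes AT5G65220 and AT1G29070 by 1.56 and 0.72. HEMB1 of the chlorophyll list changed the other way, by −0.66 (limma adjusted p = 0.0401).

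Some cytosolic ribosomal genes also rose in ratio relative to the dark. The change was called higher for 6 of 42 probe sets of the 40S list and 6 of 77 of the 60S list, and lower for none, against 1.39% higher among all. AT5G27700 gave 8002, 8065 and 7704 in polysome RNA and 3843, 4918 and 3735 in steady-state RNA at 4 h, a ratio of 0.94 that was −0.38 in the dark, a change of 1.32 (SE 0.23, limma adjusted p = 0.00355). AT3G02080 changed by 1.32 and AT2G21580 by 1.07. The median ratio of the 40S list was 0.20 in the dark, 0.09 at 0.5 h and 0.54 at 4 h. That of the 60S list was 0.14, 0.14 and 0.53 at the same stages. AT4G27130 and AT5G19510 of the translation factor list changed by 1.00 and 0.92, and LSM3B, part of an RNA-binding ring, by 1.61.

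Lower ratios at 4 h than in the dark were found for psaA, by −1.45 (SE 0.326, limma adjusted p = 0.0222), and for AT5G15780 and AT4G02480, by −1.79 and −1.89. AT4G02480 gave 86.6, 59.0 and 89.3 in polysome RNA and 640, 576 and 505 in steady-state RNA at 4 h, and 306, 379 and 559 in polysome RNA and 538, 1253 and 767 in steady-state RNA in the dark. The polysome arrays at 4 h were all below 100, whereas those in the dark were all above 300. AT1G12010 and AT3G47980 changed by −3.18 and −3.13, with signals of at most 200.3 on the 4 h and dark arrays. AT3G47980 was not called at 4 h, at −0.49 (limma adjusted p = 0.595). Its dark ratio was 2.64, with dark steady-state signals of only 23.2, 6.8 and 16.5. AT1G12010 had 59.5, 7.7 and 6.0 in polysome RNA at 4 h. SWEET1 and UGT74B1 changed by −0.95 and −0.98. The count of changed ratios was sensitive to single arrays and to the block: without the block it was 58, and with 1 array left out it lay between 115 without the third dark polysome array and 357 without the first.

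**Figure D5:**
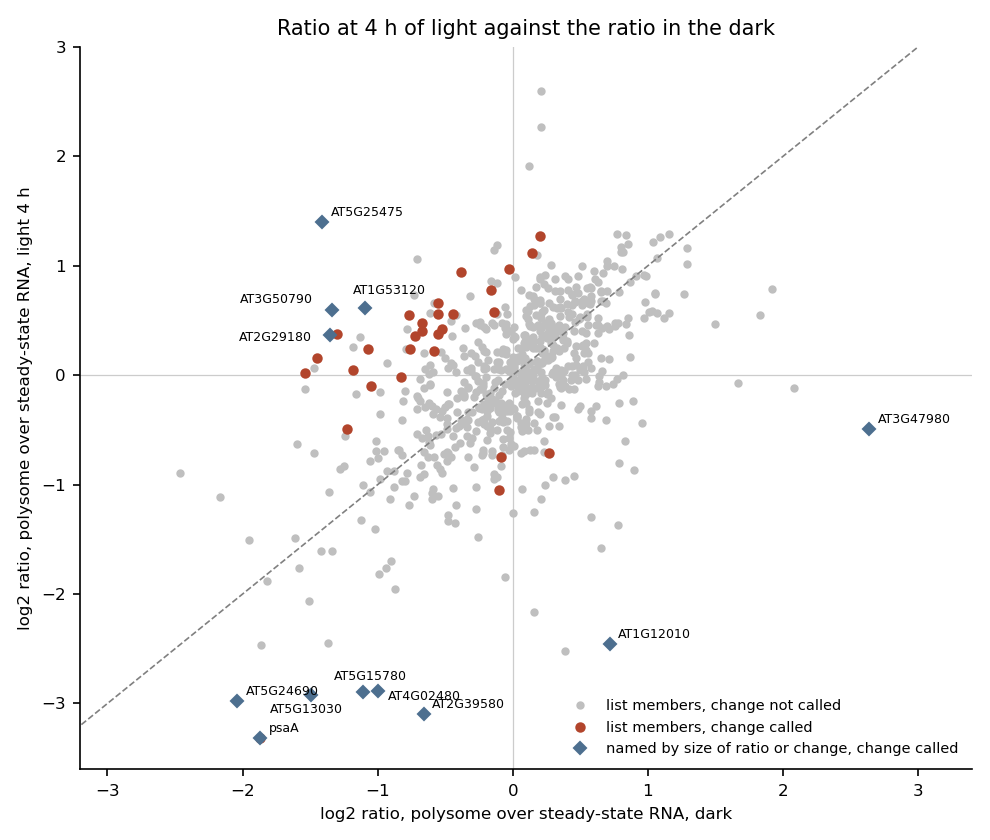
The log2 ratio of polysome over steady-state RNA at 4 h of light (vertical axis) is plotted against that in the dark (horizontal axis) for the members of all gene lists and for genes named by the size of their ratio or change whose change was called, with the diagonal dashed. Points above the diagonal had a higher ratio at 4 h, such as AT5G25475 with 1.4 at 4 h and −1.41 in the dark, and psaA lies below it with −3.32 and −1.87.

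Between 4 h and 0.5 h, 131 probe sets changed in ratio (0.823%), 84 higher (0.528%) and 47 lower (0.295%) at 4 h. psaA was lower by −1.82 (limma adjusted p = 0.011), psbB by −1.71 and psbT by −1.63. hemf2 changed by −2.53 and GSA1 by −1.0, and AT2G26500 rose by 1.23 (limma adjusted p = 0.00106). This count depended on the first steady-state array at 0.5 h, since without it 1062 probe sets were called, and on the block, without which 3 were called.

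Of the genes chosen for their known response to light in these samples, RCA was called at 4 h. HYH, MSRB6, UGT78D2, PORB and ICL were not, beside 23.1% called among all probe sets. So few genes say nothing about light-responsive genes as a class. HYH, a light-signalling bZIP factor close to HY5, gave 1597, 1688 and 1581 in polysome RNA, against 1006, 1013 and 1383 in steady-state RNA, a ratio of 0.53 that was not called (limma adjusted p = 0.191). MSRB6, a methionine sulfoxide reductase, stood at 0.51 (limma adjusted p = 0.221). Polysome arrays lay above steady-state arrays for both. Their standard errors, 0.28 for HYH and 0.285 for MSRB6, draw on all 18 arrays, and both genes were weak in the dark. Dark signals lay at 54.6 to 119.4 for HYH and 51.2 to 142.8 for MSRB6, and their part in the missing calls was not tested. UGT78D2, a flavonoid glucosyltransferase, stood at 0.12, and ICL, isocitrate lyase of the glyoxylate cycle, at −0.29. GI, the clock protein GIGANTEA, stood at 0.20, with the other 3 measured of its 43 listed genes at 0.53 to 0.74 and none called. Tissue markers could be checked for 5 of 20 listed genes. The mesophyll genes RCA and LHCB4.1 were strong in every 4 h array, whereas the root hair genes EXPA7 and EXPA18 stayed at 5.1 to 50.4. Fewer cells of a type and less RNA per cell cannot be told apart in these bulk samples.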

How the data were processed

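Signals were measured on 18 Affymetrix ATH1 arrays. The deposited values are linear signal intensities from MAS5 according to the authors (per the submitters' processing notes), and no MAS5 version was found there. Arrays had been scaled to 2% trimmed means of 500.04 to 500.05, and 4 h array medians lay between 152.7 and 205.6. No 2 arrays shared more than 0.286% of their signals.

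From 22810 probe sets, 64 controls were removed, 915 values were set to 1 because they fell below it, and signals were put on a log2 scale. The 15922 probe sets whose mean log2 signal reached the 30th percentile were tested. limma 3.58.1 in R 4.3.3 fitted 6 group means and the replicate number as a block, with an intensity trend (10 residual degrees of freedom), and p-values were adjusted by Benjamini-Hochberg over all 15922. The fit was tested on simulated data. Tables were made with Python 3.11.15 and pandas 2.3.3. The number of arrays limits the precision, and p-values measure the spread between arrays labelled as biological replicates.

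Replicate numbers come from the labels, and pairing by them was set before the fit. Deviations from group means correlated at 0.108 to 0.419 for same-numbered 4 h arrays and at most 0.0359 for others. Deviations within a group cancel out, so these correlations are not independent of each other. The fitted block also joins equal numbers across light conditions, which they do not cover.

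Probe sets were named by GEO's platform annotation and renamed where the TAIR10.1 reference table holds the locus. A lone gene is given for 13513, several for 503 and no gene for 8730, and among tested probe sets for 8788, 326 and 6808. Gene lists were written by locus or symbol from general knowledge, and only members read by a probe set listing 1 gene count as measured. In many lists few members were measured, such as 9 probe sets for 51 listed proteasome genes and 10 for 42 histone genes. The 40S and 60S lists of 97 and 139 genes gave 42 and 77. Members and lists were chosen with earlier results of these data known, and no list was tested as a set. Named genes were the 12 higher and 12 lower calls of largest ratio whose arrays did not overlap and whose pairs shared the sign, up to 2 members per list by adjusted p (the strongest signal where none was called), the 4 higher and 4 lower of largest change relative to dark, and HYH, UGT78D2, RCA, PORB, ICL and MSRB6. Other members were named after their values were seen. The planned comparison with protein length was not run, since no protein sequences were used here. The alternatives were the block, normalization, filter, pseudocount, trend and leaving out each array.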

Additional observations from a re-analysis of the deposited data

Results flagged for a closer look

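The ratio of polysome over steady-state RNA differed between 4 h of light and the dark, by limma's interaction contrast, in 17 of the named genes. Higher at 4 h, as differences of log2 ratios, were AT5G25475 (2.81), AT3G50790 (1.93), AT2G29180 (1.72), AT1G53120 (1.70), AT2G26500 (1.69), LPA19 (1.21) and AT1G29070 (0.72). Lower at 4 h were AT1G12010 (−3.18), AT3G47980 (−3.13), AT2G39580 (−2.44), AT4G02480 (−1.89), AT5G15780 (−1.79), psaA (−1.45), AT5G13030 (−1.42), UGT74B1 (−0.98), SWEET1 (−0.95) and AT5G24690 (−0.94). Of the 4 genes with the largest rise, AT3G50790 and AT2G29180 were not called at 4 h itself, with ratios of 0.60 and 0.37. Among the genes listed as lower, AT3G47980 was not called at 4 h itself, with a ratio of −0.49.

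Against 0.5 h, 11 named genes differed. Whether each gene kept its change, against the dark or 0.5 h, in other settings was not examined. Higher at 4 h were AT5G25475 (2.47), AT3G50790 (1.65), AT2G26500 (1.23) and AT2G29180 (1.2). Lower at 4 h were hemf2 (−2.53), AT5G15780 (−2.07), psaA (−1.82), AT1G01320 (−1.75), AT5G13030 (−1.27), GSA1 (−1.0) and UGT74B1 (−0.86). The lower genes AT1G01320, AT5G13030, AT5G24690 and AT4G02480 are each read by a further probe set with a higher ratio at 4 h, of 0.15, −0.57, −0.91 and 0.37. The 3′ to 5′ ratio of actin (r2) in polysome RNA had medians of 5.55 in the dark, 6.93 at 0.5 h and 10.8 at 4 h, and its part in these differences was not tested.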

How the results depend on the processing

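Called counts at 4 h moved by more than 1.5 times in few settings. Without the replicate block there were 884 higher and 1249 lower calls, and all 2133 of these were also called with it. A common median left 1368 lower. Leaving out 1 array in turn gave 1088 to 1281 higher and 1491 to 1811 lower. Changes against the dark numbered 58 without the block, 123 without the intensity trend and 115 to 357 with 1 array left out, and fell by more than 1.5 times without replicate 2 or 3 of either dark group or of the 4 h steady-state group. Changes against 0.5 h numbered 3 without the block, 87 with a block within each light condition, 26 without the trend, 47 in the compared arrays alone, and 20 to 1062 with 1 array left out, where only the first polysome array at 0.5 h and the third at 4 h left them within 1.5 times. At an unadjusted p under 0.05, 2127 ratios changed against the dark and 2234 against 0.5 h. In the dark, 589 were higher and 724 lower without the block, and 802 to 1056 higher and 953 to 1140 lower with 1 array left out. At 0.5 h, 644 were higher and 681 lower without the block, 837 higher in the compared arrays alone, and 800 to 1770 higher and 882 to 1491 lower with 1 array left out. Settings for the dark and 0.5 h counts were chosen after seeing the data. Without the first 4 h steady-state array, 13 of the 40S and 28 of the 60S probe sets were higher. No named gene reversed its ratio at 4 h. Of 109 named probe sets, 30 lost their call at 4 h without the block, 8 with a common median and 10 to 15 with 1 array left out. Whether single genes kept a called change of ratio in these settings was not examined. Under quantile normalization the median ratio was −0.12 for UDP-glycosyltransferases, −0.10 for serine carboxypeptidase-like genes, 0.03 for vacuolar sorting and secretion, 0.35 for RNA polymerase and Mediator subunits and 0.06 for transcribed pseudogenes. With 32 added it was −0.15 for the carboxypeptidase-like genes and 0.17 for the polymerase subunits, and without a filter −0.09 for bZIP factors and 0.08 for transcribed pseudogenes. The cause of these shifts was not tested.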

Other observations

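Further gene families at 4 h held few calls each, beside 9.64% higher and 13.5% lower among all probe sets. Of 11 IQ-domain proteins, which bind calmodulin, 3 were higher in polysome RNA, IQD21, IQD28 and IQD31, at log2 ratios of 0.58, 0.53 and 0.40. The calls of IQD21 and IQD28 were lost in 4 and 3 of 6 fits that left out an array (limma adjusted p up to 0.0971 and 0.0789) and without the block (limma adjusted p = 0.119 and 0.156). Of 11 TON1 recruiting motif proteins 1 was higher and 3 lower, among them TRM26 at −1.04, which kept its call with each array left out. TRM25 stood at −1.84 with overlapping arrays, and without the second polysome array at −1.06 with no call (limma adjusted p = 0.103), and its call was also lost without the block (limma adjusted p = 0.0545). Of 19 organelle RNA editing and assembly factors 2 were higher and 2 lower. LPA19 was higher at 0.66, and without the block it was not called (limma adjusted p = 0.0846).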
